A study of Arabidopsis thaliana with 6 samples.

Results

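Chloroplast-encoded transcripts are those read from loci of the plastid genome, recognised here by locus IDs that begin with ATC. The deposited array table lists 133 such loci, each with 1 feature. All loci with values on every array were taken as members, which gave 87 of the 32627 loci measured. The other 46 are listed with no value on any array and were not analysed here. They include 15 of the 17 highest-numbered chloroplast IDs and 31 of the 116 before them.

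The arrays were made from inflorescences of Arabidopsis thaliana, accession Landsberg erecta (Ler), treated with dexamethasone (DEX) or with ethanol alone (Mock), 3 arrays in each group. Every plant in both groups carried 35S::SUP-GR in a Ler wild-type background. In this transgene the broadly active 35S viral promoter drives SUPERMAN, a zinc-finger protein that bounds the stamen whorl, fused to the steroid-binding part of the glucocorticoid receptor. DEX is the steroid that lets such fusions enter the nucleus. Flower heads were dipped for 1 min in DEX, labelled at 10 µm and read here as a micromolar concentration, or in the ethanol control, both with 0.015% Silwet L-77. Buds below flower stage 10 were taken 4 hours later from soil-grown plants kept at 22 °C without a dark period. DEX-treated plants lacking the transgene were not analysed here, so the drug and the activated fusion cannot be told apart. The labels do not say that the replicates were grown apart, and the p-values therefore speak only of the spread among these 6 samples.

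The plastid genome is a small circle, present in many copies per cell, that was inherited from a cyanobacterial ancestor. It encodes core subunits of both photosystems, of the cytochrome b6f complex, of the ATP synthase and of an NDH complex, the large subunit of Rubisco, part of the plastid ribosome, ribosomal and transfer RNAs, and the core of a bacterial-type RNA polymerase. That polymerase depends on nuclear-encoded sigma factors, and a nuclear-encoded, phage-type polymerase also transcribes plastid genes. In young buds the sepals and carpels carry green plastids, while meristem cells hold small undeveloped ones.

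The RefSeq gene table for assembly TAIR10.1 lists 129 plastid genes, of which 85 are protein-coding, 37 are tRNA genes and 7 are rRNA genes. It files them under tags of another kind, and 0 of the 133 chloroplast IDs in the array table could be paired with it. The loci are therefore given by ID, and values by function (photosystems, ribosome, RNA polymerase, tRNA) were not analysed here. In whole buds, fewer plastids or fewer cells with green plastids and less RNA per plastid cannot be told apart.

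Chloroplast loci stood apart on Mock replicate 1. The median deviation of the 87 loci from each locus's own mean over 6 arrays was 0.21, 0.15 and 0.12 on DEX replicates 1, 2 and 3, and -0.52, 0.07 and 0.03 on Mock replicates 1, 2 and 3 (log2 intensity). Mock replicate 1 was thus far below the other 5 arrays, which lay close together. The median intensity of the chloroplast loci was 968, 953 and 943 on the DEX arrays, against 466, 925 and 897 on the Mock arrays. Summed over the 87 loci, chloroplast signal made up 1.24%, 1.20% and 1.18% of all intensity on the DEX arrays, against 0.813%, 1.17% and 1.10% on the Mock arrays. Both measures put all 3 DEX arrays above all 3 Mock arrays, by a narrow margin where Mock replicates 2 and 3 are concerned. Over all loci the median deviation stayed between -0.01 and 0.01 on every array.

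**Figure D1:**
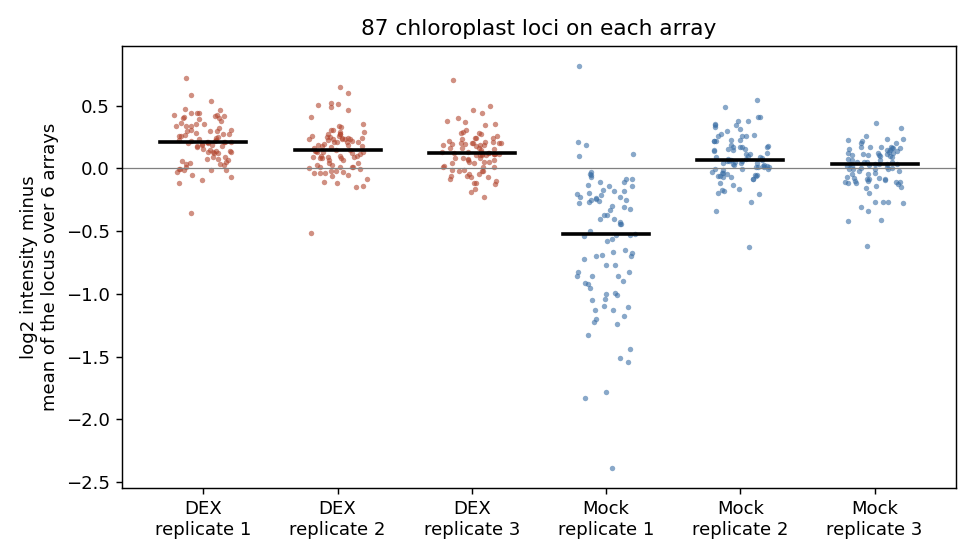
Deviation of each of the 87 chloroplast loci from its own mean over 6 arrays (y axis, log2 intensity) on each array (x axis, DEX arrays left, Mock arrays right). Points are loci and black bars are medians; the median is -0.52 on Mock replicate 1 and between 0.03 and 0.21 on the other 5 arrays.

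On Mock replicate 1, 80 of the 87 loci lay below the mean of Mock replicates 2 and 3. The median shortfall was -0.54 on the log2 scale, with quartiles of -1.06 and -0.15, so the middle locus had 0.687 times the intensity on the other Mock arrays. Over all loci the same median was -0.01, with quartiles of -0.25 and 0.23. Mock replicate 1 was the lowest of the 6 arrays for 71 chloroplast loci, 81.6% of them. The same held for 75.7% of 107 mitochondrial loci and for 21.0% of all loci. For 38 chloroplast loci Mock replicate 1 lay at least 0.5 below the next lowest array, and for 20 at least 1. Of the summed squared deviations of the chloroplast loci about their own means, 85.5% lay between Mock replicate 1 and the mean of the other 5 arrays, against 23.6% over all loci. For mitochondrial loci that share was 75.4%. Each DEX array, set in the same way against the mean of the other DEX arrays, had chloroplast medians of 0.07, 0.02 and -0.05.

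The shortfall was far from uniform among members. At 25 loci the intensity on Mock replicate 1 was 2-fold or more below that of the other Mock arrays, and at 24 loci it was within 0.25 of it on the log2 scale. ATCG01080 had the widest gap, with 67.9 on Mock replicate 1 against 517 and 354 on Mock replicates 2 and 3, which is 6.29-fold. ATCG00350 and ATCG00270, singled out after their values were seen, were the other loci with 4-fold gaps, at 4.26-fold and 4.05-fold. ATCG00270 was measured at 3025, 2839 and 2393 on the DEX arrays, against 587, 2492 and 2266 on the Mock arrays, so a single array held all of its large variation. ATCG01030, also singled out afterwards, ran furthest the other way, 1.19 higher on Mock replicate 1. It was the dimmest member, with intensities of 25.8, 13.1 and 18.4 on the DEX arrays, against 33.0, 12.2 and 17.3 on the Mock arrays. At that brightness the arrays of both groups overlapped widely.

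Brightness went with the size of the shortfall, but not in 1 direction. When the members were ordered by their mean on the other 5 arrays, the median shortfall was -0.43 in the dimmest 29 loci, -1.05 in the middle 29 and -0.23 in the brightest 29. Among the middle 29, 17 loci were 2-fold or more lower on Mock replicate 1, against 5 of the dimmest and 3 of the brightest 29, which were ATCG00270, ATCG00020 and ATCG00490 (the last 2 also singled out afterwards). Whether the scale of the array compresses differences among its brightest features was not tested. In order of locus number, the first, middle and last 29 loci had median shortfalls of -0.69, -0.44 and -0.43. The low loci were thus spread along the numbering. Between neighbours in the order of locus number the correlation of the shortfalls was weak (r = 0.22 across 86 pairs of loci from the same arrays, given as a description).

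**Figure D2:**
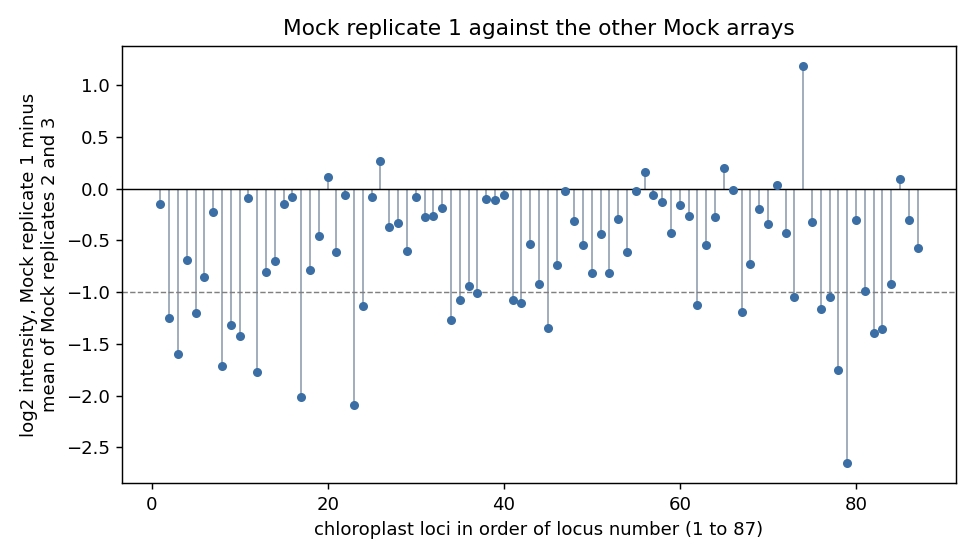
Log2 intensity on Mock replicate 1 minus the mean of Mock replicates 2 and 3 (y axis) for the 87 chloroplast loci in order of locus number (x axis). Points are loci and the dashed line marks a 2-fold shortfall, reached by 25 loci; 80 points lie below 0.

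DEX was set against Mock to find transcripts that differ within hours of activating the SUPERMAN fusion. Of the 87 chloroplast loci, 80 had a higher mean in DEX than in Mock, where 50.9% of all loci did. Their median difference, DEX minus Mock, was 0.30 on the log2 scale, a 1.23-fold difference, against 0.01 over all loci. Without Mock replicate 1 the median difference was 0.12, a 1.09-fold difference, and 64 loci were above 0, where 50.3% of all loci were. The size of the median difference thus rested largely on the array that stands apart. Without it 17 loci turned from above 0 to below 0, and 1 turned the other way.

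No chloroplast locus passed the test across all loci (limma, Benjamini-Hochberg adjusted p under 0.05). The background for that test was 0.00306% of all loci called higher and 0.049% called lower. At an unadjusted p under 0.05, 8 chloroplast loci were higher in DEX, 9.2% of them, and 0 were lower, where 4.5% of all loci were higher and 5.92% lower. Their differences lay between 0.38 and 0.95, with adjusted p from 0.176 to 0.477. None of these 8 was among the 25 loci with a 2-fold or larger shortfall on Mock replicate 1. Those 25 had a median difference of 0.51, but a median standard error (SE) of 0.38, against 0.22 and 0.15 for the other 62 loci. Without Mock replicate 1 the same 25 loci had a median difference of 0.11 and the other 62 of 0.14. The 25 were picked by their low values on that array, which also enter the Mock mean and its spread. Their larger difference and SE with all arrays thus follow in part from the choice, and no conclusion is drawn from them. Without that array 4 loci, 4.6%, were higher at an unadjusted p under 0.05 and 0 lower, where the background was 4.28% higher and 5.35% lower, so their share was close to the background. The count rested on other arrays too. Without DEX replicate 1, 2 or 3 it was 1, 2 and 5 loci higher (1.15%, 2.3% and 5.75%), where 3.78%, 3.66% and 3.59% of all loci were. Without Mock replicate 2 or 3 it was 13 and 4 loci (14.9% and 4.6%), where 4.61% and 4.43% of all loci were.

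**Figure D3:**
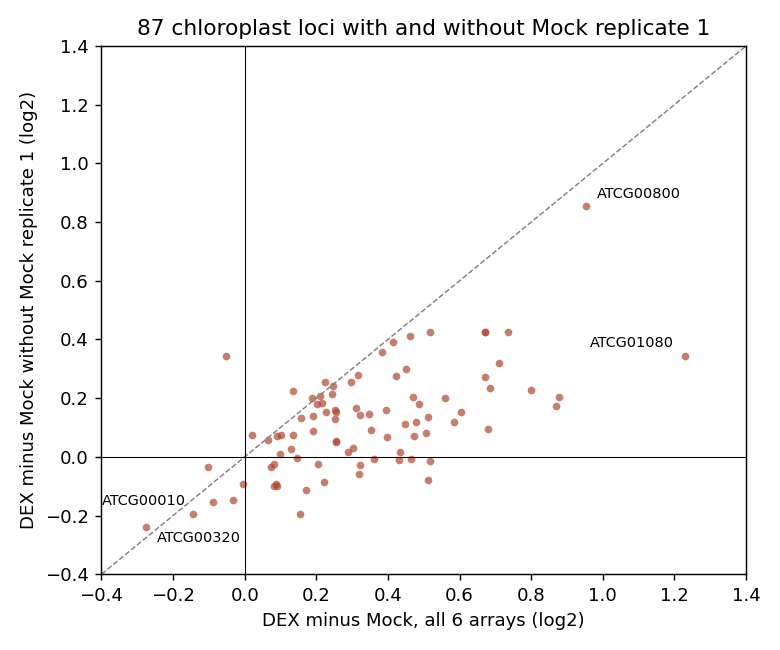
DEX minus Mock difference of each of the 87 chloroplast loci with all 6 arrays (x axis, log2) and without Mock replicate 1 (y axis, log2). The dashed line marks equal values; most points lie below it, ATCG00800 stays at 0.85 without the array, and ATCG01080 drops to 0.34 from 1.23.

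The wider spread within Mock was largely that of Mock replicate 1 against the other Mock arrays. The median SD over the 3 arrays of a group was 0.10 in DEX and 0.34 in Mock, and 73 of the 87 loci had the larger SD in Mock. Between Mock replicates 2 and 3 alone the median SD was 0.10, and 39 of the 87 loci had a larger SD there than in DEX. An SD over 2 arrays tends to run lower than one over 3, so these values do not show equal spread. Over the 5 arrays other than Mock replicate 1, the median SD of a chloroplast locus was 0.14, against 0.26 over all loci, which are dimmer on the whole. In 25 loci, 28.7% and mostly others than the 25 with the large shortfalls, all 3 DEX arrays lay above all 3 Mock arrays, and in 1, 1.15%, all 3 lay below, where 8.74% and 9.2% of all loci did. Without Mock replicate 1, where these loci cannot but stay apart, 26 loci, 29.9%, lay wholly higher in DEX and 4, 4.6%, wholly lower, where the background was 13.5% and 13.9%. The share of wholly higher loci was thus above the background with and without the array. The 2 counts share 5 arrays and are not separate support. Nor was the pattern particular to chloroplast loci. Of 107 mitochondrial loci, 28 lay wholly higher in DEX and 2 wholly lower, and 31 and 7 without Mock replicate 1. Of 169 nuclear tRNA loci, the counts were 33 and 7, and 47 and 13 without that array. Loci read on the same 6 arrays are not independent of one another, and no p-value is attached to these counts.

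ATCG00800 differed most clearly. Its intensities were 822, 878 and 867 on the DEX arrays, against 386, 560 and 400.4 on the Mock arrays. The lowest DEX array lay 0.55 above the highest Mock array on the log2 scale, whereas the next widest such gap among the members was 0.18. The means were 9.74 ± 0.05 in DEX and 8.79 ± 0.30 in Mock (log2 intensity, SD, n = 3), a difference of 0.95 (SE 0.17), or 1.93-fold. It did not pass over all loci (limma adjusted p = 0.176; exact two-sided permutation p = 0.1, the smallest that 20 relabelings of the arrays can give). Mock replicate 1 weighed little here, since the difference was 0.85 (SE 0.18) without it, while the next largest difference of any member was then 0.43. With a variance prior that follows intensity and resists outlying loci, ATCG00800 passed with all arrays (limma adjusted p = 0.00192) and without Mock replicate 1 (adjusted p = 0.0119). It was the only chloroplast locus to pass in either fit, where the background was 0.257% higher and 1.06% lower with all arrays, and 0.126% and 0.622% without that array. It also passed when loci below the median intensity were left out (limma adjusted p = 0.0181), where 0.374% of the loci kept were called higher and 1.35% lower.

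ATCG01080 had the largest difference of any member but the opposite profile. It was measured at 585, 558 and 489.7 on the DEX arrays, against 67.9, 517 and 354 on the Mock arrays. The groups overlapped, because Mock replicate 2 lay above DEX replicate 3. The difference of 1.23 (SE 0.76, limma adjusted p = 0.638; exact permutation p = 0.2) was 0.34 (SE 0.21) without Mock replicate 1, so 1 array set its size.

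Of the 7 loci below 0, ATCG00320 and ATCG00010 had the lowest differences. ATCG00320 was at 158, 198 and 200.4 on the DEX arrays, against 235, 228 and 208 on the Mock arrays, and was the 1 locus with every DEX array under the lowest Mock array. Its difference of -0.28 (SE 0.14) did not pass (limma adjusted p = 0.563; exact permutation p = 0.1). ATCG00010 was among the brighter members, at 2107, 2138 and 1812 on the DEX arrays, against 2079, 2227 and 2382 on the Mock arrays. Its groups overlapped, and the difference was -0.14 (SE 0.12, limma adjusted p = 0.733). On Mock replicate 1, relative to the mean of the other Mock arrays, ATCG00320 stood at 0.11 and ATCG00010 at -0.15, both small shifts for this array.

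**Figure D4:**
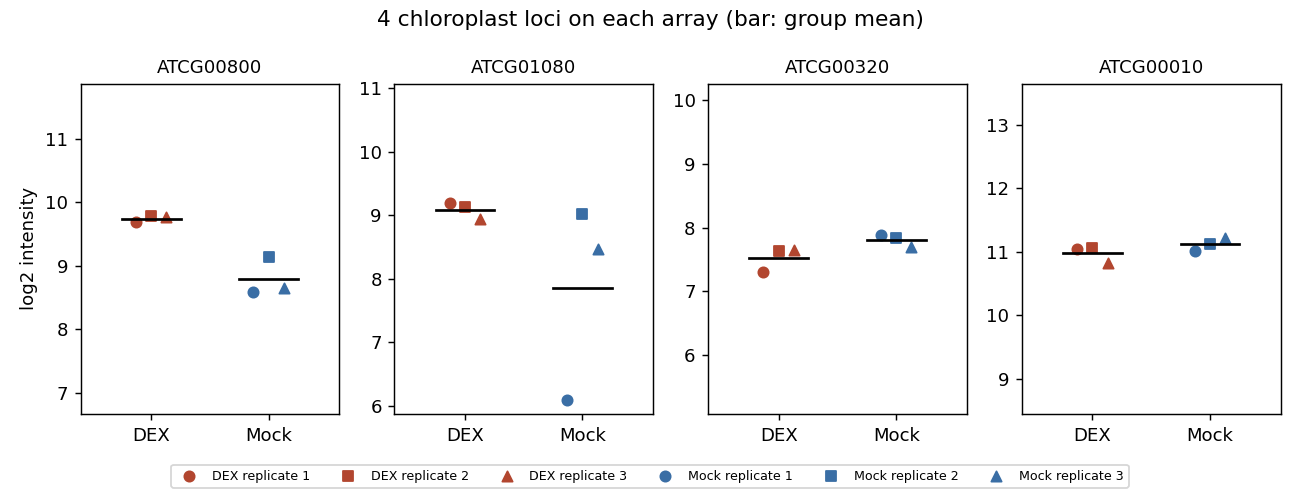
Log2 intensity (y axis) of 4 chloroplast loci on the 3 DEX arrays (left in each panel) and the 3 Mock arrays (right); symbols mark the replicate number, bars are group means, and every panel spans the same range. ATCG00800 is higher on all DEX arrays, and ATCG01080 is set apart by Mock replicate 1 alone.

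Nuclear genes that serve plastid gene expression did not share the low values on Mock replicate 1. All 40 listed genes were measured, and 0 passed in the comparison of DEX with Mock (limma), where 0.0521% of all loci did; at an unadjusted p under 0.05, 3 of 40 were lower and 0 higher, where 5.92% of all loci were lower and 4.5% higher. For 20 genes of plastid transcription the median on Mock replicate 1, relative to the other Mock arrays, was -0.07, and the median DEX minus Mock difference was -0.03, with 6 of 20 above 0. The sigma factor gene SIG4 was at 8.05 ± 0.29 in DEX and 8.52 ± 0.05 in Mock, a difference of -0.47 (SE 0.17, adjusted p = 0.432). SIGA, another sigma factor gene, differed by 0.34 (SE 0.15) in the other direction. FSD2 and FSD3, iron superoxide dismutases found with the plastid polymerase, were at -0.27 (SE 0.09) and -0.33 (SE 0.13), and neither passed.

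For 14 genes of plastid RNA processing and stability the median on Mock replicate 1 was -0.03, and the median difference was -0.09, with 2 of 14 above 0. CP29, a chloroplast RNA-binding protein, was at 10.69 ± 0.03 in DEX and 11.04 ± 0.12 in Mock (log2 intensity, SD, n = 3). Its difference of -0.35 (SE 0.11) did not pass (limma adjusted p = 0.380) but did with the prior that follows intensity (adjusted p = 0.0440). That call was lost without Mock replicate 1 (limma adjusted p = 0.0891 with the same prior), although the difference was then -0.36. The share of all loci called lower with that prior also fell without the array, to 0.622% from 1.06%. MORF9, an RNA editing factor, was at -0.23 (SE 0.10), and CSP41A, an RNA-binding protein of the chloroplast, at -0.22 (SE 0.13). AT2G33430, which the RefSeq table does not list, was at -0.16 (SE 0.09). For 6 plastid ribosomal protein genes the median on Mock replicate 1 was 0.11 and the median difference -0.21, with 0 of 6 above 0. RPL4, EMB3126 and RPS1 lay between -0.28 and -0.18, and none passed. The median differences of these 3 lists were thus below 0, where that of the chloroplast loci was above it.

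Markers of tissue were set beside these values. The floral genes LFY, AP1, AG, AP3, PI and SEP3 were all measured well above the array medians of 6.19 to 6.25, between 7.51 (LFY) and 10.45 (AP1) in DEX and between 8.33 (LFY) and 10.73 (AP1) in Mock (log2 intensity). All 6 had a lower mean in DEX than in Mock, with a median difference of -0.30, and of -0.24 without Mock replicate 1, where the median of the chloroplast loci was above 0. None passed (limma), and 3 of the 6 were lower at an unadjusted p under 0.05, where 5.92% of all loci were. LFY, a regulator of floral identity, had the largest difference, -0.82 (SE 0.18, limma adjusted p = 0.251). It passed with the prior that follows intensity (limma adjusted p = 0.0155), where 1.06% of all loci were called lower. The part of these tissue markers in the chloroplast values was not tested. For 7 nuclear photosynthesis genes that mark green tissue, the summed intensity was 9330 to 9595 on the DEX arrays and 9244 to 10146 on the Mock arrays, with 9884 on Mock replicate 1. Bright genes carry that sum. Taken gene by gene, Mock replicate 1 was the lowest of the 6 arrays for 4 of the 7, with a median of -0.10 relative to the other Mock arrays. The dimmest of them, LHCB2.1, a light-harvesting protein gene, was at -1.27. RBCS1A, a small subunit gene of Rubisco, was at 11.21 ± 0.09 in DEX and 11.22 ± 0.11 in Mock. For 6 tapetum and pollen genes the sums were 6141 to 6671 in DEX and 5959 to 6631 in Mock, with 6631 on Mock replicate 1. Of these 6 genes, 2 had a higher mean in DEX and 4 a lower one. MS2 was higher in DEX by 0.34 (SE 0.11, limma adjusted p = 0.366). It passed with the prior that follows intensity (limma adjusted p = 0.0476), where 0.257% of all loci were called higher. For 6 touch and handling genes the sums were 1366 to 1614 in DEX and 1580 to 1823 in Mock, with the highest, 1823, on Mock replicate 1. There 5 of the 6 were above the mean of the other Mock arrays (median 0.51), where 15908 of all 32627 loci were. The largest rise on Mock replicate 1, 2.16, was in the dimmest of the 6 (mean intensity 10.85), while the brightest (655) was at 0.01. TCH4, a touch-induced cell wall enzyme, was at 6.92 on that array, against 6.41 and 6.31 on Mock replicates 2 and 3. No value on any array was 0, and the part of handling in the chloroplast values was not tested.

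Some other classes of loci, but not all, were also low on Mock replicate 1. The 107 mitochondrial loci had a median of -0.50 there relative to the other Mock arrays, and a median DEX minus Mock difference of 0.28 with all arrays and 0.10 without Mock replicate 1. Among nuclear loci that make no protein, 61 snoRNA loci had a median of -0.27 on that array and 169 tRNA loci -0.05. Their median DEX minus Mock differences were 0.30 and 0.17 with all arrays, and 0.17 and 0.13 without Mock replicate 1. Without that array, 72.9% of mitochondrial, 70.5% of snoRNA and 69.8% of tRNA loci were above 0, against 73.6% of chloroplast loci. The higher means in DEX were thus not particular to chloroplast loci. On Mock replicate 1, relative to the other Mock arrays, 13 snRNA loci were at -0.18, 146 miRNA loci at -0.13 and 3858 pseudogenes at 0.07. Nuclear protein-coding genes were at -0.01 there, with a median DEX minus Mock difference of -0.01 with and without that array. No difference between these classes was tested.

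**Figure D5:**
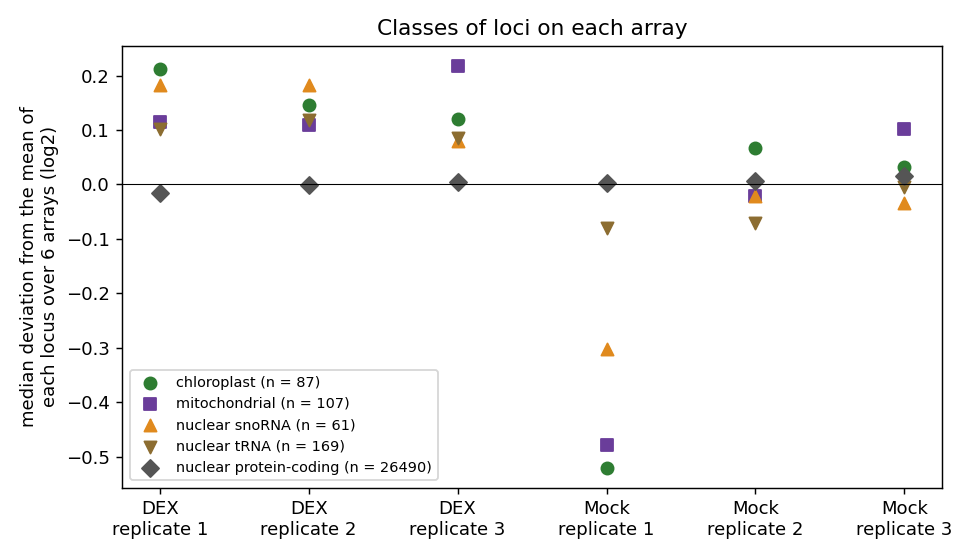
Median deviation from each locus's mean over 6 arrays (y axis, log2) for 5 classes of loci on each array (x axis, DEX arrays left, Mock arrays right); symbols mark classes. Chloroplast and mitochondrial loci are lowest on Mock replicate 1, at -0.52 and -0.48, and snoRNA loci are at -0.30, while nuclear protein-coding genes stay near 0.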

How the data were processed

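The authors deposited RMA intensity values on a linear scale (0.482 to 3642 over the table), per the submitters' processing notes for RMA and the range of the values; for the RMA version, background step and probe design nothing is stated there. Cy3-labelled RNA was hybridised to NimbleGen arrays, per the labels' protocols. Of 39640 rows, 37118 had values. Each intensity was taken to log2 with no pseudocount and no filter, and the brightest feature stood for a locus. DEX was compared with Mock over all 32627 loci by limma's lmFit and eBayes (limma 3.58.1, R 4.3.3; two-sided, default prior), with Benjamini-Hochberg adjustment and a threshold of 0.05. The fit was tested on simulated data in which no array was set apart. For ATCG00800, ATCG01080 and ATCG00320 an exact permutation p over all 20 ways of labelling the arrays is also given. Alternatives changed the prior, array weights, scaling, replicate block, handling of dim or multiple features and the threshold, and dropped each array in turn.

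The members and lists were chosen with earlier results of these data known. Symbols are those of the RefSeq table. Because no chloroplast ID had a symbol there, no chloroplast locus could be named by symbol or function. The rest of the naming rule was applied in part. The loci with the 2 largest and 2 smallest differences are named, with 5 further loci named after their values were seen. Other loci with a small p are not named, and the missing symbols are not the reason for that. In the nuclear lists the 4 genes with the smallest p are named, except 1 that is not reported here. Tissue markers are described by their levels, sums and counts. Among them LFY, LHCB2.1, MS2 and TCH4 were singled out after their values were seen. Arrays give no read depth, so their number limits the precision.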

Additional observations from a re-analysis of the deposited data

How the results depend on the processing

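Against 0 chloroplast loci called, 1 was called with the trended and robust prior, 1 without loci below the median intensity and 1 with that prior without Mock replicate 1 (each time ATCG00800), and 8 at an unadjusted p under 0.05. With any 1 array left out the count was 0 each time, the number of loci above 0 ranged from 64 to 82, and the median difference ranged from 0.12 without Mock replicate 1 to 0.43 without Mock replicate 2. The median difference was 0.29 with quantile normalization, 0.33 with median centring and 0.30 with 16 added to each intensity. The median shortfall of Mock replicate 1 was -0.51 with quantile normalization and -0.51 with median centring. Of the nuclear plastid genes, 1 (CP29) was called with the trended and robust prior, against 0; leaving out any 1 array gave 0 with the default prior, and leaving out Mock replicate 1 gave 0 with that prior. The difference of ATCG00800 ranged from 0.85 to 1.12 with an array left out, and that of ATCG01080 from 0.34 to 1.81. The difference of ATCG00320 ranged from -0.34 to -0.17 (without DEX replicate 1) and that of ATCG00010 from -0.19 to -0.07 (without DEX replicate 3). Arrays of the same replicate number were weakly alike: their deviations from group means correlated by 0.03, 0.06 and 0.06. Each array correlated best with its own number, and the consensus correlation within replicate number over all loci was 0.12. With the replicate block as a fixed factor 0 chloroplast loci were called, and with a random replicate block 0. The second fit for Mock replicate 1, and the other settings for it and for nuclear genes, were chosen after seeing the data. The causes of these changes were not tested.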
